A study of Mus musculus with 6 samples.

Results

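The 10 microRNAs (miRNAs) described here are enriched in neurons and leave out miR-124 and miR-9, the best known miRNAs of that class. They are mmu-miR-128, mmu-miR-129-3p, mmu-miR-129-5p, mmu-miR-137, mmu-miR-138, mmu-miR-149, mmu-miR-153, mmu-miR-218, mmu-miR-7a and mmu-miR-7b, where mmu stands for mouse and is left off below except at the first value of each. The list itself was drawn up with earlier results of these data known. Probes were then matched to it by name and not by measured values: a capture probe belongs to the set where a part of its name equals one of these mouse miRNAs. The rule found 10 probes, 1 for each miRNA and each printed as 4 spots, among 597 probes that name a mouse miRNA, and all 10 were among the 595 probes tested.

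Experimental autoimmune uveoretinitis (EAU) is a T cell-driven inflammation of the retina that is induced in susceptible mouse strains as a model of human uveitis. Retinal cells were taken from B10.RⅢ mice aged 8 weeks that were developing EAU, on day 14, and from naive B10.RⅢ mice of the same age. Each group has 3 samples, harvested independently. How many mice make up a sample is not in the labels, and the p-values therefore speak only of variation among harvests. Total RNA (800 ng) of each sample carried the dye Hy3 and was hybridised, beside a Hy5-labelled pool of the samples, to a miRCURY array, whose capture probes contain locked nucleic acid. The value of a probe is the log2 ratio of Hy3 over Hy5, so that a positive difference means more in EAU than in naive.

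A miRNA pairs with messenger RNAs mainly through its seed, bases 2 to 8 from the 5′ end, and lowers the stability or translation of those targets. Both strands of a hairpin precursor can give a mature miRNA, the 5p arm and the 3p arm. Neurons hold a characteristic set of miRNAs that act on excitability, on dendrites and synapses and on the exit from the cell cycle, and the retina, a part of the central nervous system, shares much of that set.

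The mature sequences are shown because the seed defines which targets the members can share, and because 2 pairs of members are related by seed or by hairpin. All 10 members were matched by name to mouse RefSeq miRNA annotation (GRCm38.p6). Several array names give no arm, and for these the arm known as the main product was taken. Capitals mark the seed.
miR-128: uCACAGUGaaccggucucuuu
miR-129-3p: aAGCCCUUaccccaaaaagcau
miR-129-5p: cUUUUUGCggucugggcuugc
miR-137: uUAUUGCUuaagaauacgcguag
miR-138: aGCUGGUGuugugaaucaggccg
miR-149: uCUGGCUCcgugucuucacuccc
miR-153: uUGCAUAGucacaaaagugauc
miR-218: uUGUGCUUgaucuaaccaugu
miR-7a: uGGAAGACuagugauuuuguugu
miR-7b: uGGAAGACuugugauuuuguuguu
The 10 sequences hold 9 distinct seeds. Only miR-7a and miR-7b share one, and over their common length they differ by a single substitution, A10U, counted from 1 at the 5′ end with the base of miR-7a first. Outside the set, the seed of miR-218 occurs in 1 other mature miRNA of the table, miR-7002-3p. The other pair, miR-129-3p and miR-129-5p, comes from the 2 arms of the same precursor.

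The hairpin of Mir129-2 is shown with both arms in capitals, the 5p arm first, since the set's clearest difference lies on its 3p arm.
Mir129-2: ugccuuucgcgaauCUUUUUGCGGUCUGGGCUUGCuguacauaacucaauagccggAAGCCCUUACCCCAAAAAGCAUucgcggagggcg
It spans chr2:94241364-94241453 on the minus strand of GRCm38.p6. The 5p sequence is also made from Mir129-1, at chr6:29022619-29022691 on the plus strand. Neither lies within the span of an annotated protein-coding gene, and non-coding genes were not looked at.

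Most members gave weak signals. The scanner's blank level was taken on each array as the median signal of its blank and negative-control spots plus 3 median absolute deviations, and a probe counted as above the blanks where at least 50% of its spots exceeded that level. By that measure miR-129-3p, miR-129-5p, miR-149 and miR-7a exceeded the blanks on all 6 arrays, and miR-138 did so on 5 of 6. MiR-128 was above them on 1 of 3 EAU and 1 of 3 naive arrays, and miR-218 on 0 of 3 EAU arrays and 1 of 3 naive arrays. The remaining members, miR-137, miR-153 and miR-7b, were under the blanks on every array, so log2 differences given for them are not read as folds. Over all mouse probes, 294, 315 and 249 were above the blanks on EAU replicates 1 to 3, against 252, 292 and 276 on naive replicates 1 to 3.

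**Figure D1:**
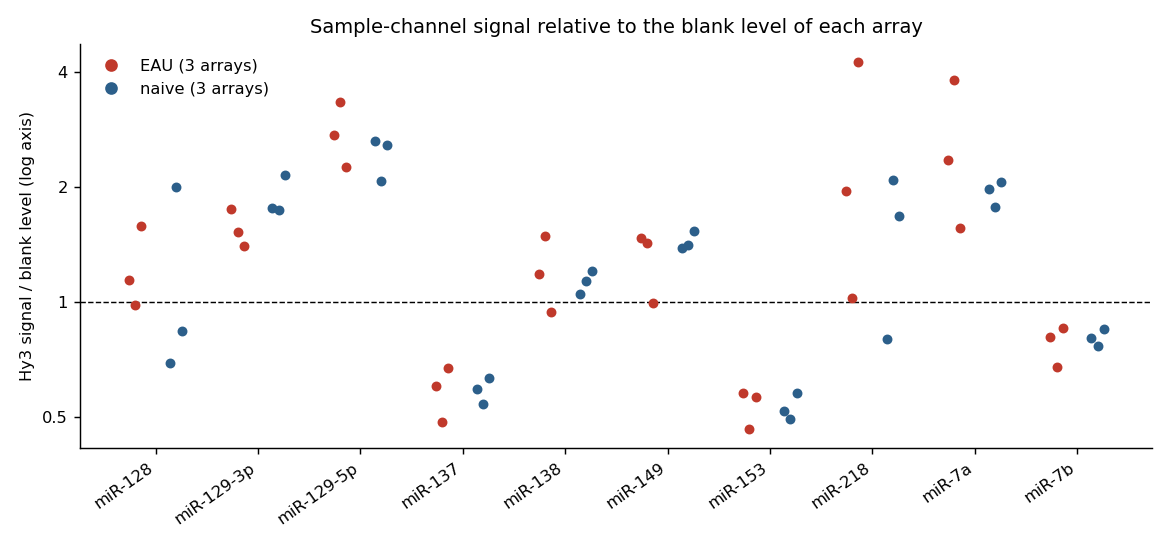
Sample-channel (Hy3) signal of each member divided by the blank level of its array (log axis), as the mean of the spots, for 3 EAU and 3 naive arrays. Points of miR-137, miR-153 and miR-7b lie under the dashed line at 1 on every array; means of miR-128 and miR-218 above the line can rest on 1 bright spot of 4.

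The markers of the labelled tissue were present. MiR-183, miR-96 and miR-182 of photoreceptors, miR-124 and miR-9 of neurons and miR-204 and miR-211 of the pigment epithelium were above the blanks on all 6 arrays. The summed Hy3 signal of the 2 neuronal markers ran between 5969 and 17268 on EAU arrays and between 43965 and 49844 on naive arrays. In the log2 ratio, miR-9 was lower in EAU (-0.35, limma adjusted p = 0.0211), while miR-124 overlapped between groups (-0.69, 95% interval -2.48 to 1.11; adjusted p = 0.520). That of the 3 photoreceptor markers ran between 495 and 1162 on EAU arrays and between 2793 and 3134 on naive arrays. The summed signal of 5 leukocyte markers was 651 to 1381 in EAU and 419 to 485 in naive, where miR-223 and miR-150 passed the blanks on every array and miR-155 did so on none. Of these markers only miR-142-3p passed in the log2 ratio (0.56, limma adjusted p = 0.0166). MiR-142-5p (0.47), miR-223 (0.13), miR-155 (0.09) and miR-150 (-0.10) did not. Of the erythroid markers miR-486 was lower (-0.23, limma adjusted p = 0.0463), while miR-451 (0.14) and miR-144 (0.01) did not pass. Neither endothelial miR-126-3p and miR-126-5p nor glial miR-219 and miR-338-3p passed. In bulk RNA, fewer neurons and less RNA per neuron cannot be told apart, and the part of cell composition in the differences below was not tested. EAU and naive arrays were scanned on separate days, 1 per group, and an effect of that day cannot be told apart from one of EAU.

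When EAU retinal cells were set against naive ones, 2 of the 10 members were lower in EAU, miR-129-3p and miR-128, and 0 were higher. The test was limma's moderated test over all 595 mouse probes with Benjamini-Hochberg adjustment and a threshold of 0.05. Of all tested probes, 12.9% passed it, 8.74% lower and 4.2% higher, and no result about the set is read from 2 calls beside these shares. When Hy3 alone was scaled by the spike-in controls, 0 of 595 probes passed. All 10 member differences were then above 0, with a median of 0.23 against 0.28 over all tested probes. In the main processing the median difference of the 10 members was -0.07, against -0.01 over all tested probes. In 5 members, miR-128, miR-129-3p, miR-129-5p, miR-149 and miR-7b, every EAU array lay under every naive array, while 29.6% of all probes showed that order, 17% the opposite one and 46.6% either. Over all probes, 25 were higher and 52 lower. That split was 21 to 4 with no normalization, 17 to 7 with the loess curve fitted on bright spots and 1 to 1 with median centring. It was 42 to 30 with the scanner software's processed signals and 42 to 40 in the deposited table. Lower probes stayed in excess without background correction (26 to 68), with an offset of 10 (37 to 61) and with Hy3 quantile-normalized (22 to 35). They did so too with outlier spots kept (26 to 59), with the filter above the blanks (25 to 37) and over probes of all species (38 to 73).

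**Figure D2:**
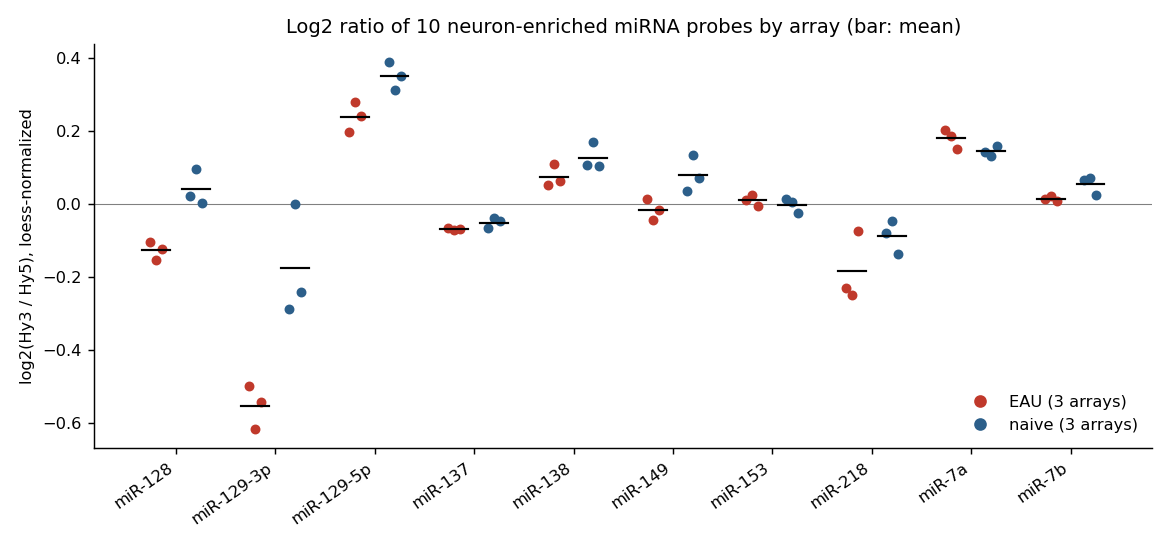
Loess-normalized log2(Hy3/Hy5) of each of the 10 members on 3 EAU arrays (left of each pair) and 3 naive arrays (right), with the group mean as a bar. The widest gap between group means is that of miR-129-3p, at -0.55 in EAU and -0.18 in naive.

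The miRNA mmu-miR-129-3p, a brain-enriched arm that in vertebrate cells promotes the assembly of cilia by repressing the centriolar protein CP110, showed the largest difference of the set. Its log2 ratio was -0.50, -0.62 and -0.54 on EAU replicates 1 to 3, against -0.29, 0.00 and -0.24 on naive replicates 1 to 3. All 3 EAU arrays lay under all 3 naive arrays, and the naive arrays were the more widely spread, with replicate 2 highest. The difference was -0.38 on the log2 scale (SE 0.08, 95% interval -0.58 to -0.17; limma adjusted p = 0.0462). Its Hy3 signal was 127, 163 and 91.5 in EAU, against 157, 160 and 141 in naive, so that the raw sample signals of the groups overlap. The Hy5 signal of the shared pool at this probe was 54.8, 65.6 and 53.7 on EAU arrays and 60.1, 60.9 and 54.9 on naive arrays, which overlap as well.

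Within each EAU array every one of the 4 spots of miR-129-3p had a negative ratio, between -0.88 and -0.35. Spots on naive arrays ran between -0.47 and 0.04. None of its 24 spots was an outlier or had a raised local background. The call itself was narrow: it was lost without any single array, with adjusted p between 0.0598 and 0.113 and a difference between -0.43 and -0.29. Without naive replicate 2, the highest array, the difference was -0.29 (limma adjusted p = 0.0598).

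The size of that difference followed the processing. It was -0.56 without background correction, -0.74 with a smaller offset of 10, -1.05 from the scanner software's processed signals and -0.62 in the deposited table, and all of these passed. With Hy3 alone after quantile normalization it was -0.41 (limma adjusted p = 0.108), and with median centring -0.31 (adjusted p = 0.152). It was smaller with no normalization, at -0.24 (adjusted p = 0.641), and with loess on bright spots, at -0.17 (adjusted p = 0.475). When Hy3 alone was scaled by the spike-in controls it was 0.01 (adjusted p = 0.968), in a setting where the median of all probes stood at 0.28.

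Probes that name only human miRNAs were also on the array, and 2 of these have a miR-129 name: human miR-129-3p, and human miR-129*, whose arm and hairpin are not stated in the files. They share the RNA and the pool with the mouse probe and are given as values without a test. Human miR-129-3p had a log2 ratio of -0.11, -0.38 and -0.20 in EAU, against 0.32, 0.58 and 0.40 in naive, a difference of -0.66. Human miR-129* had -0.26, -0.65 and -0.48 in EAU, against 0.15, 0.37 and 0.18 in naive, a difference of -0.70. Both exceeded the blanks on every array, and on both every EAU array lay under every naive array.

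Their Hy3 signals were less clear than their ratios. Human miR-129-3p had a Hy3 signal of 260, 445 and 118 in EAU and 368, 513 and 451 in naive, so EAU replicate 2 lay within the naive range. Human miR-129* had 234, 342 and 113 in EAU and 299.7, 319 and 290.1 in naive, where EAU replicate 2 was highest of all. With Hy3 alone scaled by the spike-in controls the groups overlapped on both probes, at differences of -0.49 for human miR-129-3p and -0.19 for human miR-129*. In the other 8 alternatives computed for them the groups did not overlap, with differences between -1.22 and -0.48 for human miR-129-3p and between -1.42 and -0.48 for human miR-129*. The capture sequences of these probes are not used here, and how far they bind the mouse miRNA was not tested.

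**Figure D3:**
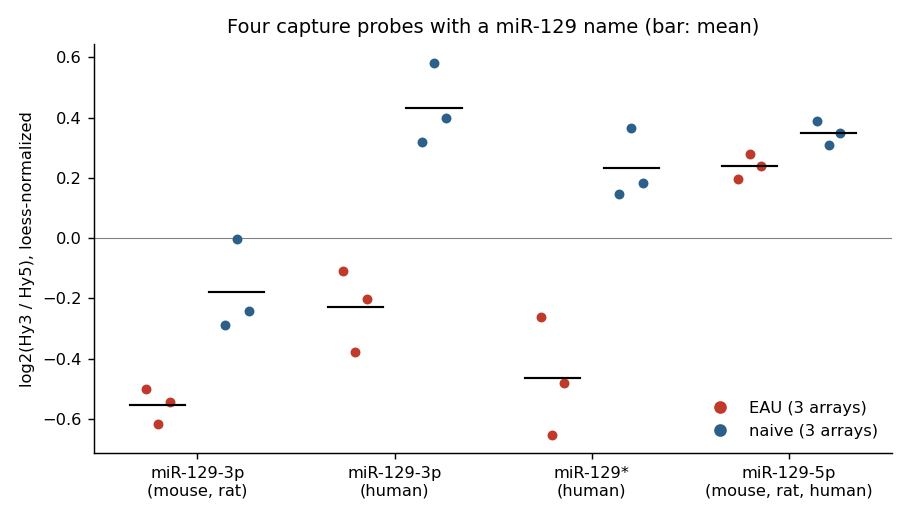
Loess-normalized log2(Hy3/Hy5) of 4 probes with a miR-129 name, on 3 EAU arrays (left of each pair) and 3 naive arrays (right), with the group mean as a bar. On mouse miR-129-3p, human miR-129-3p and human miR-129* the EAU means were -0.55, -0.23 and -0.47 and the naive means -0.18, 0.43 and 0.23; with Hy3 alone scaled by spike-ins the 2 human-named probes overlapped between groups and mouse miR-129-3p was at 0.01.

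The miRNA mmu-miR-129-5p, the other arm, which represses the potassium channel Kv1.1 in the dendrites of rodent neurons, did not pass. Its log2 ratio was 0.20, 0.28 and 0.24 in EAU, against 0.39, 0.31 and 0.35 in naive. The groups did not overlap, but EAU replicate 2 and naive replicate 2 lay near each other. The difference was -0.11 (SE 0.03, 95% interval -0.19 to -0.03; limma adjusted p = 0.0736). Its Hy3 signal was 198, 358 and 147 in EAU, against 235, 191 and 169 in naive, with EAU holding both the highest and the lowest array. Under other normalizations the sign turned: the difference was 0.17 with median centring, 0.24 with no normalization, 0.02 with loess on bright spots and 0.42 with Hy3 scaled by spike-ins, none of which passed.

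The miRNA mmu-miR-128, which in mice restrains neuronal excitability, is made from Mir128-1 (chr1:128202361-128202430, plus strand, within the span of R3hdm1) and Mir128-2 (chr9:112118636-112118711, minus strand, within that of Arpp21). Its log2 ratio was -0.11, -0.15 and -0.12 in EAU, against 0.02, 0.10 and 0.00 in naive. The groups did not overlap, and the difference of -0.17 passed (SE 0.03; limma adjusted p = 0.0291). The Hy3 signal was 83.0, 105.2 and 103 in EAU and 61.8, 184 and 55.1 in naive, over blank levels of 72.7, 107 and 65.4 in EAU and 89.3, 92.1 and 65.7 in naive. Naive replicate 2 was the brightest array, and most arrays stood near the blanks.

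The difference of miR-128 lay mostly in 1 of its 4 spots. The first listed spot had a log2 ratio of -0.44, -0.39 and -0.50 in EAU, against 0.05, 0.22 and -0.02 in naive. The mean of the other 3 spots was 0.01, -0.07 and 0.00 in EAU, against 0.01, 0.05 and 0.01 in naive, so that those spots were near 0 in both groups. The local Hy3 background of the first spot was 28, 34 and 164 in EAU and 24, 204 and 23 in naive, where the array medians were 22 to 24. With the median of the spots in place of their mean the difference was -0.07 (limma adjusted p = 0.213). With spots of a local background over 2 times the array median left out it was -0.11 (adjusted p = 0.170), and with Hy3 alone, quantile-normalized, -0.05 (adjusted p = 0.981). Scaled by spike-ins, Hy3 gave 0.29 (adjusted p = 0.308). Of the 6 arrays, leaving out EAU replicate 1 alone kept the call (adjusted p = 0.0474). The others gave adjusted p between 0.0519 and 0.0906.

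**Figure D4:**
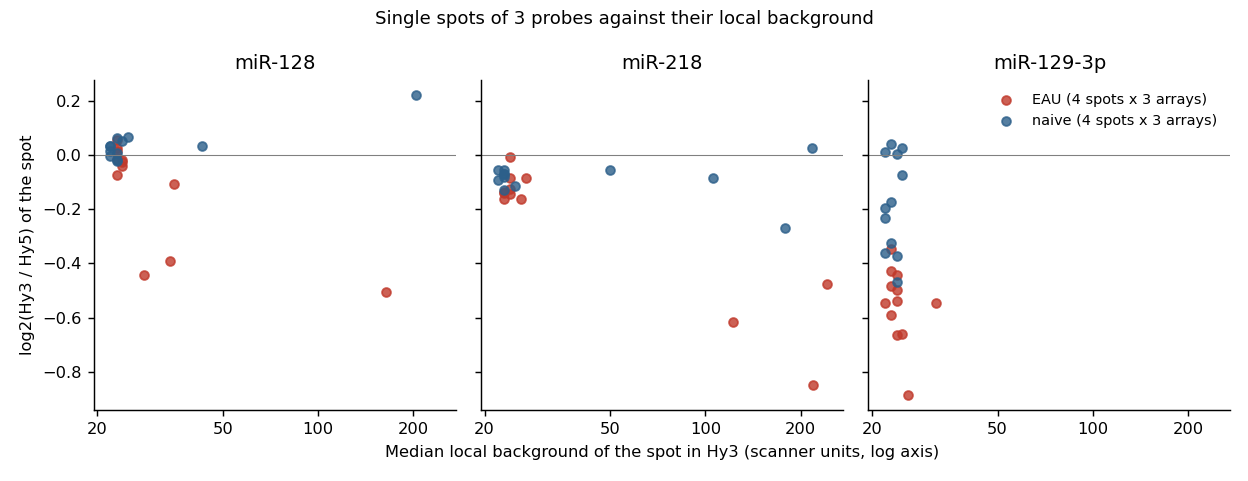
Log2(Hy3/Hy5) of each single spot of miR-128, miR-218 and miR-129-3p (4 spots on each of 3 EAU and 3 naive arrays) against the median local Hy3 background around that spot in scanner units (log axis). Strongly negative spots of miR-128 and miR-218 in EAU are the first listed ones, 4 of 6 with a local background over 2 times the array median, while spots of miR-129-3p differ between groups at a background of 22 to 32.

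The miRNA mmu-miR-218, a marker of motor neurons, has its genes within the axon guidance genes Slit2 (Mir218-1, chr5:48223942-48224051, plus strand) and Slit3 (Mir218-2, chr11:35616816-35616925, plus strand). The log2 ratio was -0.23, -0.25 and -0.07 in EAU, against -0.08, -0.05 and -0.14 in naive. The groups overlapped, since EAU replicate 3 lay among the naive arrays. The difference was -0.10 (SE 0.05, 95% interval -0.23 to 0.04; limma adjusted p = 0.260). By the share of its spots the probe was above the blanks on naive replicate 2 alone, although its mean signal exceeded the blank level on other arrays as well.

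Its mean Hy3 signal was 142, 109.9 and 277 in EAU and 71.2, 192 and 110.1 in naive. As with miR-128, the first spot of miR-218 stood apart. It had a log2 ratio of -0.48, -0.62 and -0.85 in EAU, against -0.12, 0.02 and -0.27 in naive, and the one on EAU replicate 3 was left out as an outlier. The other 3 spots averaged -0.15, -0.13 and -0.07 in EAU, against -0.07, -0.07 and -0.09 in naive. The local Hy3 background of the first spot was 242, 122.5 and 219 in EAU, against 25 on naive replicate 1 and at least 179 on the other naive arrays, so it was raised on 5 of 6 arrays. With the outlier spot kept, miR-218 passed at -0.16 (limma adjusted p = 0.0244), and in the deposited table it passed at -0.67 (adjusted p = 0.0482). With spots of raised background left out it was -0.04 (adjusted p = 0.355).

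The miRNA mmu-miR-149, whose gene lies within the span of the proteoglycan gene Gpc1 (Mir149, chr1:92850378-92850443, plus strand), had a log2 ratio of 0.01, -0.04 and -0.02 in EAU, against 0.03, 0.13 and 0.07 in naive. The groups did not overlap, though EAU replicate 1 and naive replicate 1 were close. The difference of -0.10 did not pass (SE 0.03, 95% interval -0.18 to -0.02; limma adjusted p = 0.0996). Its Hy3 signal was 107, 152.9 and 64.9 in EAU, against 123, 130 and 101 in naive. With loess on bright spots the difference was 0.01 and with Hy3 scaled by spike-ins 0.11, the alternatives in which its sign turned.

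The miRNA mmu-miR-138, which limits the size of dendritic spines in rat neurons, is made from Mir138-2 (chr8:94324311-94324381, plus strand, within the span of Nup93) and Mir138-1 (chr9:122682876-122682974, plus strand). On the log2 scale its ratio was 0.05, 0.11 and 0.06 in EAU, against 0.11, 0.17 and 0.10 in naive. EAU replicate 2 overlapped the naive arrays, and the difference of -0.05 did not pass (SE 0.03, 95% interval -0.12 to 0.02; limma adjusted p = 0.229). Its Hy3 signal was 86.1, 160 and 61.4 in EAU and 93.6, 105 and 79.1 in naive, with EAU replicate 3 under the blanks. It was -0.50 in the deposited table and 0.09 with no normalization, and neither passed.

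MiR-7a and miR-7b have one seed between them and are known for repressing alpha-synuclein and for binding the circular RNA Cdr1as, which is abundant in neurons. MiR-7a comes from Mir7-1 (chr13:58392779-58392886, minus strand, within the span of Hnrnpk) and Mir7-2 (chr7:78888277-78888373, plus strand), and miR-7b from Mir7b (chr17:56242988-56243098, plus strand). The probe of mmu-miR-7a had a log2 ratio of 0.20, 0.19 and 0.15 in EAU, against 0.14, 0.13 and 0.16 in naive. The groups overlapped, and the difference of 0.03 did not pass (SE 0.02, 95% interval -0.02 to 0.09; limma adjusted p = 0.272).

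MiR-7a was the only member whose difference was above 0 under all 15 processing alternatives, between 0.03 and 0.54, and it passed in 0 of them. Alternatives that changed only the spots left out, the probes tested or the block did not touch its ratios, so they repeat the main value of 0.03. Its Hy3 signal was 171, 410 and 102 in EAU and 176, 163 and 135 in naive, so EAU held the brightest and the dimmest array. The probe of mmu-miR-7b had a log2 ratio of 0.01, 0.02 and 0.01 in EAU, against 0.07, 0.07 and 0.02 in naive. Its Hy3 signal was 58.9, 72.6 and 55.8 in EAU and 71.6, 70.4 and 55.6 in naive. The ratios did not overlap, but the probe was under the blanks on every array, and miR-7b did not pass (limma adjusted p = 0.215).

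The remaining members were near a ratio of 0 in both groups and under the blanks throughout. The probe of mmu-miR-137 (Mir137, chr3:118433857-118433929, plus strand), a miRNA that acts in neuronal maturation, had a log2 ratio of -0.07 on each EAU array, against -0.07, -0.04 and -0.05 in naive (limma adjusted p = 0.490). That of mmu-miR-153 (Mir153, chr12:117250817-117250885, plus strand, within the span of Ptprn2), a miRNA that represses genes of synaptic vesicle release, had 0.01, 0.02 and -0.01 in EAU, against 0.01, 0.01 and -0.03 in naive (limma adjusted p = 0.675). Values under the blanks do not show whether retinal cells contain these miRNAs, nor whether EAU alters them.

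**Figure D5:**
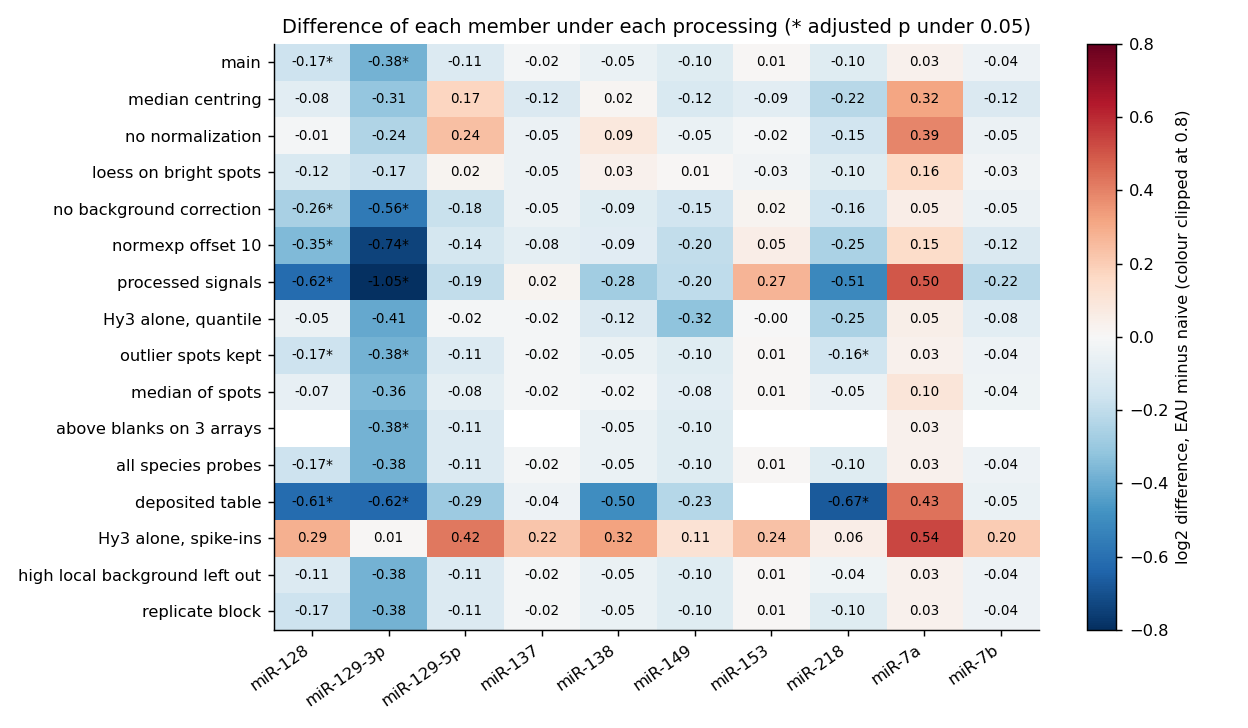
Log2 difference (EAU minus naive) of the 10 members, in columns, in the main processing and under 15 alternatives, in rows. Colour gives the difference, clipped at 0.8, an asterisk an adjusted p under 0.05, and empty cells probes without a test. MiR-129-3p and miR-128 each passed in 6 alternatives. With Hy3 scaled by spike-ins every member stood above 0, where the median of all probes was 0.28.

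Of the other arms of the members' hairpins 4 had mouse probes, and 0 of 4 passed, with a median difference of -0.01. MiR-138* was bright on all arrays, with a Hy3 signal of 1037, 1776 and 496 in EAU and 1189, 1199 and 902 in naive. Its log2 ratio was -0.15, -0.35 and 0.03 in EAU, against -0.08, -0.05 and -0.21 in naive, groups that overlap widely (difference -0.05, 95% interval -0.31 to 0.22; limma adjusted p = 0.793). MiR-218-2* (0.03), miR-218-1* (-0.02) and miR-7a* (0.00) were under the blanks on all arrays, so these differences are not folds.

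Among probes named for human miRNAs that bear the number of a member, human miR-149* was above the blanks on all 6 arrays too. Its log2 ratio was 0.70, 0.90 and 0.63 in EAU, against 0.73, 1.11 and 1.13 in naive, and the groups overlapped at EAU replicate 2 and naive replicate 1. Human miR-138-2* and human miR-7-2* were above the blanks on 5 of 6 arrays, with overlapping groups and differences of -0.04 and 0.05. Other processing parted the groups: human miR-7-2* was higher in EAU without overlap with median centring (0.36), loess on bright spots (0.18), Hy3 quantile-normalized (0.23) and Hy3 scaled by spike-ins (0.67). Human miR-138-2* was lower without overlap with Hy3 quantile-normalized (-0.40). These values were not tested.

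A list of 15 other neuron-associated miRNAs was counted in the same fit: 4 were lower, 0 were higher and 11 did not pass, where 8.74% of all tested probes were lower. Among the 11 are miR-219 (0.02, limma adjusted p = 0.552) and miR-338-3p (-0.07, adjusted p = 0.263), which were also set down as markers of glia. The list is therefore not neuronal alone. Its median difference was -0.07, against -0.01 over all probes. The 4 were miR-124* (-0.41, limma adjusted p = 0.0403), the other arm of the miR-124 hairpin, miR-9 (-0.35, adjusted p = 0.0211), which acts in neural progenitors, miR-135a (-0.19, adjusted p = 0.0149) and miR-135b (-0.16, adjusted p = 0.0463). Of the 11, miR-124 had the largest difference, -0.69, with overlapping groups (adjusted p = 0.520), and miR-34a was at 0.24 with every EAU array above every naive array (adjusted p = 0.204). Both were named after their values were seen. A difference between this list and the 10 members was not tested.

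The probes whose log2 ratio followed that of a member most closely were taken from 188 other probes above the blanks on all 6 arrays, by Pearson's correlation over those arrays. The points share arrays, pool and loess curve, so the values are descriptions. The arrays also span both groups, so a shared difference between EAU and naive raises r. MiR-129-3p was closest to miR-30e (r = 0.972) and miR-200c* (r = 0.971), and miR-128 to miR-30e (r = 0.993) and let-7g (r = 0.985). MiR-30e was the closest probe to both members that passed. In the main processing miR-30e (-0.51, limma adjusted p = 0.0149) and let-7g (-0.33, adjusted p = 0.0205) were themselves lower in EAU. MiR-200c* (-0.20, adjusted p = 0.0852) did not pass. MiR-128 was under the blanks on most arrays, and its difference lay mostly in its first spot. Whether these miRNAs vary together within a group was not tested. MiR-129-5p was closest to miR-101a (r = 0.927) and miR-16 (r = 0.899), miR-149 to miR-328 (r = 0.987) and miR-125a-5p (r = 0.974), and miR-7a to miR-200b* (r = 0.898) and miR-669i (r = 0.875).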

How the data were processed

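Per the file headers, Agilent Feature Extraction 9.1.3.1 wrote the scanner files that the authors deposited, 1 per array, with an intensity for 8720 spots in 2 channels. No dyes were swapped. Mean intensity was corrected for local background by normexp (offset 50) and normalized by loess within each array, control spots at weight 0, in limma 3.58.1 (R 4.3.3). Outlier spots were dropped, and a probe's log2 ratios were averaged over its spots. EAU was compared with naive by lmFit and eBayes, two-sided, with Benjamini-Hochberg adjustment over 595 probes, after the steps were tested on simulated data. The offset draws the log ratios of dim probes toward 0. All members are named, with the probes of each list that passed and up to 4 of smallest p. Alternatives changed the normalization, background correction, channel, spot summary, filter, probes tested and arrays included. Members and lists were chosen with earlier results of these data known. The number of arrays limits the precision.

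A second deposited file lists a linear ratio for each of 1972 probes. Its values follow Hy3 over Hy5 (median correlation with the processed log ratio over the 6 arrays 0.955, for 116 bright probes). Taken over probes within each array, the correlation was lower, between 0.620 (naive replicate 1) and 0.826 (EAU replicate 3). Its column medians were 0.809, 0.886 and 0.807 for EAU and 0.879, 0.851 and 0.769 for naive, and its normalization and centring are unknown. Rows above 32 on every array (36) were left out. Sequences, gene spans and coordinates are from RefSeq (GRCm38.p6), and no build is named in the array files. Whether a hairpin lies in an exon or an intron was not determined.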

Additional observations from a re-analysis of the deposited data

Results flagged for a closer look

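A probe for human miR-218-1*, which the comparisons above do not use, had a Hy3 signal of 83.0, 83.3 and 86.5 on EAU replicates 1 to 3, a mean of 84.3, against 51.3, 50.3 and 41.5 on naive replicates 1 to 3, a mean of 47.7. It drew attention because its signal was higher in every EAU sample than in any naive sample. It was above the blanks on 0 of 6 arrays. On each EAU array 1 of its 4 spots had a raised local background, and on the naive arrays none did. Without those spots its signal was 47.6, 50.8 and 43.1 in EAU, all within the range of the naive arrays.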

How the results depend on the processing

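The 77 calls, 25 higher and 52 lower, and the 2 members among them, both lower, varied with the processing. Median centring left 2 calls (1 higher, 1 lower) and 0 members, and turned miR-129-5p (0.17), miR-138 (0.018) and miR-153 (-0.087). No normalization left 25 (4 lower) and 0 members, and turned miR-129-5p (0.24), miR-138 (0.087) and miR-153 (-0.018). Loess on bright spots left 24 (7 lower) and 0 members, and turned miR-129-5p (0.023), miR-138 (0.033), miR-149 (0.012) and miR-153 (-0.025). Processed signals gave 42 higher and 30 lower, with miR-137 at 0.022, and the deposited values, without one for miR-153, 42 higher. Hy3 alone with quantile normalization called 0 members, with miR-153 at -0.0012. The median of spots left 47 calls (26 lower) and 0 members. With the filter above the blanks 62 of 288 probes passed (21.5%), and 1 of 5 tested members. Testing probes of all species gave 111 calls of 1724 (6.44%), 38 of them higher, and 1 of 10 members. Chosen after seeing the data, Hy3 scaled by spike-ins gave 0 calls (0 higher, 0 lower) and turned miR-128 (0.29), miR-129-3p (0.0070), miR-129-5p (0.42), miR-137 (0.22), miR-138 (0.32), miR-149 (0.11), miR-218 (0.056) and miR-7b (0.20), in a setting where the median of all probes was 0.28. Leaving out spots of high local background, chosen likewise, left 44 calls (24 lower) and 0 members. The cause of these shifts was not tested. With 1 array left out, calls ran between 7 and 77 (2 to 25 higher, 5 to 54 lower) and members called, each of them lower, between 0 and 1. The calls numbered 7 without EAU replicate 3, 9, 15 and 36 without naive replicates 1, 2 and 3. With the replicate number as a block there were 2 calls (0 higher, 2 lower) and 0 members. Whether same-numbered samples belong together is not in the labels. Their deviations from the group means correlated at 0.19, -0.15 and 0.29 over 597 probes, most of them dim on some arrays, which cannot decide it. The values of members under the blanks are at the limit of the arrays' signal.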
